A study of Mus musculus with 24 samples.

Results

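Cultures of KPsh cells with p53 silenced were compared by RNA sequencing between cells edited with a guide against Pcyt2 and cells with that guide and a Pcyt2 cDNA. KPsh is a mouse pancreatic ductal adenocarcinoma line that carries a doxycycline-switched hairpin against Trp53, so that the drug keeps p53 silenced and its removal restores p53. The 4 libraries compared here, of 24 in the series, were all on doxycycline at 1 µg/ml for 6 days on collagen-coated plates. Of these, 2 came from cells with the Pcyt2 guide alone, called the edited libraries below. The other 2 came from cells with the guide and a guide-resistant Pcyt2 cDNA, called the cDNA libraries. Both groups therefore carry the guide, the hairpin and the drug, and by their labels differ in the cDNA. The labels do not say whether the cDNA cells were made from the same edited cells, so other differences between the lines cannot be told apart from the cDNA. The labels do not say whether the edited cells were a clone or a pool, nor whether the 2 replicates of a group were separate cultures, so a p-value here reflects how far these particular libraries scatter, and that scatter may be technical. Of 55401 genes in the table, the 14916 with enough reads were tested, with the spread estimated over these 4 libraries and the 4 libraries of the same cells taken off doxycycline.

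Pcyt2 is the cytidylyl-transferase that turns phosphoethanolamine into CDP-ethanolamine, the rate-limiting step of the ethanolamine branch of the Kennedy pathway. That branch makes phosphatidylethanolamine from free ethanolamine in the endoplasmic reticulum, beside a parallel choline branch that makes phosphatidylcholine. Cells can also make phosphatidylethanolamine in mitochondria by decarboxylating phosphatidylserine, so the loss of Pcyt2 leaves another source of this membrane lipid.

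Pcyt2 itself separated the groups. On the counts-per-million (CPM) scale, Pcyt2 was read at 28.6 and 28.5 CPM in the edited libraries and at 2636 and 2588 CPM in the cDNA libraries, a log2 difference of -6.51 ± 0.06 (SE; edgeR quasi-likelihood test, adjusted p = 5.2e-53). The groups did not overlap. Counts cannot tell the edited endogenous transcript from the cDNA. Unedited parental KPsh cells on doxycycline, sequenced in a separate experiment of the series whose table was normalised on its own and which was cultured for longer, had 111 ± 4.57 CPM (SD, n = 3). On that scale the edited cells held 25.8% of the parental Pcyt2 level and the cDNA cells 23.6 times that level, so the comparison sets edited cells against cells that over-express Pcyt2, and not against cells with a normal amount. Trp53 was silenced to a like level in both groups, at 22.7 and 19.2 CPM in the edited and 19.3 and 20.2 CPM in the cDNA libraries (log2 difference 0.08 ± 0.09, adjusted p = 0.636).

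The libraries held 13801515 to 17127760 counts, and mitochondrial transcripts took 1.86% to 2.00% of them. Most markers of other cell types were below 1 CPM in all 4 libraries. This held for 13 of 14 fibroblast markers, 17 of 20 immune markers, 10 of 12 endothelial markers and 19 of 20 acinar and endocrine markers. The fibroblast markers Pdgfrb, Col1a2 and Dcn had no count, nor had Cd3e, Adgre1 and Pecam1, markers of T cells, macrophages and endothelium. Other markers were read. Among the immune markers, Csf1r was at 7.78 to 10.05, Cd14 at 7.93 to 12.81 and Cd68 at 1.83 to 3.26 CPM over the 4 libraries. The endothelial marker Egfl7 was at 3.09 to 6.43 CPM. Cdh5, another, was at 2.78 and 2.24 CPM in the edited and 0.661 and 0.825 CPM in the cDNA libraries. Pdx1, of the acinar and endocrine list, was at 37.99 to 46.63 CPM. The cell source of these reads was not tested. The fibroblast markers summed to 9.28 to 9.44 CPM in the edited and 2.65 to 2.94 CPM in the cDNA libraries, nearly all of it Pdgfra. Ductal and epithelial genes summed to 8095 to 8120 CPM in the edited and 9136 to 9168 CPM in the cDNA libraries, with Krt8, Krt18 and Krt19 the largest parts. Of the 25 listed, 9 were below 1 CPM in all 4 libraries, among them Epcam, Krt7 and Cldn4, and Esrp1 had no count. CT010467.1, a gene of biotype rRNA, was read at 6177 and 13870.0 CPM in the edited and at 2009 and 3515 CPM in the cDNA libraries, with wide spread within each group (log2 difference 1.86, adjusted p = 0.22, not called). The part of ribosomal RNA in the results below was not tested.

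Many genes differed between edited and cDNA cells, most of them by a small amount. At an adjusted p under 0.05, 2746 of 14916 genes were called (18.4%), of which 1253 were higher (8.40%) and 1493 lower (10.0%) in the edited cells. Of these, 308 (2.06% of all tested) changed at least 2-fold, 149 higher (0.999%) and 159 lower (1.07%), and the median absolute log2 change of all genes was 0.14. Without the second cDNA library the count of calls was 1680. Higher calls made up 45.6% of the total, but 55.9% when no filter on low counts was applied (1444 higher, 1141 lower) and 53.1% when the 4 on-doxycycline libraries were fitted alone.

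**Figure D1:**
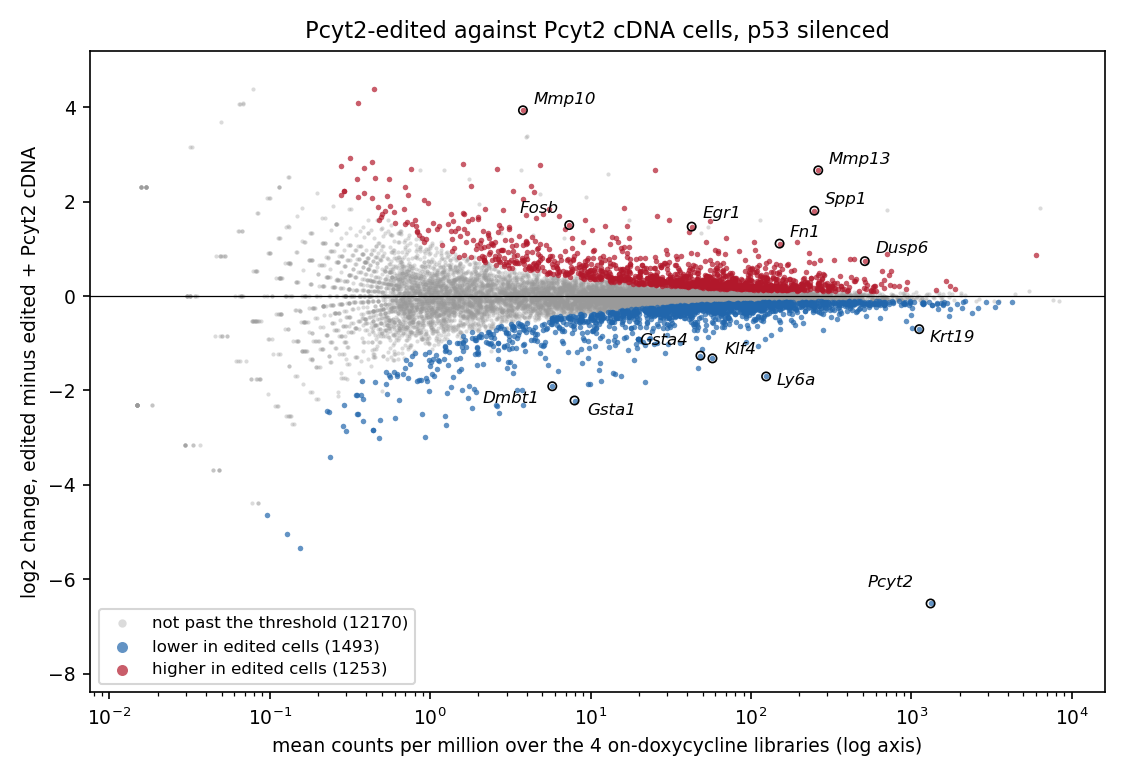
Each point is 1 of the 14916 tested genes. The x axis is the mean CPM over the 4 libraries (log scale) and the y axis the log2 change, edited minus cDNA. Red points are the 1253 genes called higher and blue points the 1493 called lower, and 14 genes are named. Pcyt2 lies at -6.51, and most called genes lie within 1 log2 unit of 0.

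Among the genes that rose most were 2 matrix metalloproteinase genes on chromosome 9. Mmp13, an interstitial collagenase, was read at 445 and 465 CPM in the edited and at 66.1 and 76.6 CPM in the cDNA libraries (log2 change 2.67 ± 0.05, adjusted p = 3.6e-33). Mmp10, a stromelysin that can activate other proteases, was at 7.14 and 7.14 CPM against 0.294 and 0.590 CPM (3.94 ± 0.29, adjusted p = 4.6e-15). Both edited libraries were above both cDNA libraries for each gene, as the rule that named the highest and lowest genes required. The share of all tested genes whose groups lay apart was not counted, so this and like remarks describe single genes only. Promoters of these genes are known to carry an AP-1 element, the site bound by Fos and Jun proteins, and both start-site windows from RefSeq (build GRCm38.p6, 250 bases before to 50 after the start) hold the letters TGANTCA, searched on both strands. They are shown with that match in capitals, at position -35 in Mmp13 and -63 in Mmp10, together with the window of Il1rn, the interleukin 1 receptor antagonist, another gene that rose, with its match at -141. Mmp13 is at chr9:7272264-7272563, Mmp10 at chr9:7502092-7502391 and Il1rn at chr2:24336610-24336909, all on the plus strand.
Mmp13: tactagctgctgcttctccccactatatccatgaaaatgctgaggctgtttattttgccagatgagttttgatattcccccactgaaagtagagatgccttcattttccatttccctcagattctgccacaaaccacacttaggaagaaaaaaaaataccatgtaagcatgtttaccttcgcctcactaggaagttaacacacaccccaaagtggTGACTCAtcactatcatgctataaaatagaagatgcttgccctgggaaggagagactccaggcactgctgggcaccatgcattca
Mmp10: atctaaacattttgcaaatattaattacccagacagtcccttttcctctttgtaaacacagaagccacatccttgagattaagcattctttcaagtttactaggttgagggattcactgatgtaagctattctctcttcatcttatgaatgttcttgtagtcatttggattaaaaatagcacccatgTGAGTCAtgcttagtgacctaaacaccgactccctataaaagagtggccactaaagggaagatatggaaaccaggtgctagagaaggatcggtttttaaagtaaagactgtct
Il1rn: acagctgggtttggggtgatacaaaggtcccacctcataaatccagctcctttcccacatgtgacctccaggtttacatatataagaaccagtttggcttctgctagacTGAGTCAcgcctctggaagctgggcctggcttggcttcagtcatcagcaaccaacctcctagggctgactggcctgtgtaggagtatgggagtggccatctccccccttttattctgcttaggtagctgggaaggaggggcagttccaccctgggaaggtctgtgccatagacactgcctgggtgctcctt
The same letters stand in 7.81% of all 32851 promoter windows and in 5.30% of the 12818 windows of tested genes, and a match is a description, not a shown binding site. The 3 windows were chosen because they hold it. The list counts that follow take a gene with a match in any of its windows, a unit unlike that of these percentages. In the matrix list 2 of the 10 called-higher genes with a window held the letters, and these were Mmp13 and Mmp10 themselves. Of all 20 tested members with a window 3 did, the third being Itga3, which was not called. In the RAS-MAPK list described below none of the 14 called-higher genes with a window did.

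The other genes with the largest rises were of mixed function. Spp1, which encodes the secreted matrix protein osteopontin, was at 367 and 408 CPM in the edited against 107 and 114 CPM in the cDNA libraries (1.81 ± 0.06, adjusted p = 2.1e-14). Its groups lay apart, as the naming rule required. The unnamed transcript Gm42793 (1.87 ± 0.13) overlaps Spp1 in 24.7% of its exon bases, and since reads were counted on both strands the overlapping genes cannot be told apart. The same limit holds, for 10.2% to 20.9% of exon bases, for Atp1b1, Flvcr1, Gngt2, Lpcat3, Pisd, Pla2g7 and Spp1. Among the 12 highest were also Nrk, a kinase (2.79 ± 0.22), Pgf, the placental growth factor (2.33 ± 0.23), Il18rap, an interleukin 18 receptor chain (2.23 ± 0.26), Hdac9, a histone deacetylase (2.21 ± 0.23), Pdgfra, the platelet-derived growth factor receptor alpha (1.85 ± 0.19), and the membrane proteins Tmem252 (2.05 ± 0.24) and Tmem132c (1.73 ± 0.19). These 7 were at no more than 8.84 CPM in any of the 4 libraries, with adjusted p of 3.4e-10 or less in 4 of them and 2.9e-09 or less in all.

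The lowest genes after Pcyt2 included enzymes of detoxification and genes of differentiated epithelium. Ly6a, which encodes the surface antigen Sca-1, fell from 192 and 189 CPM in the cDNA libraries to 60.0 and 56.9 CPM in the edited ones (-1.70 ± 0.05, adjusted p = 1.4e-28). Vnn1, a pantetheinase, was at 8.66 and 10.7 CPM in the edited against 31.3 and 36.3 CPM in the cDNA libraries (-1.81 ± 0.10, adjusted p = 3.6e-18). No edited library reached a cDNA library in either gene, as the rule that named them required. Dmbt1, a secreted mucosal scavenger receptor (-1.91 ± 0.17), Sult1d1, a sulfotransferase (-1.98 ± 0.23), Hoxa13, a homeobox factor (-1.99 ± 0.22), Tcf23, a helix-loop-helix factor (-1.80 ± 0.13), Serpinb1a, a serine protease inhibitor (-1.87 ± 0.14), Sh2d4a, an adaptor (-1.87 ± 0.14), Pmp22, a myelin and epithelial membrane protein (-1.69 ± 0.11), and Gngt2, a G protein subunit (-2.31 ± 0.23), also fell. Ly6a belongs to a family of near-identical genes whose reads the counting could have split.

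Few genes of phosphatidylethanolamine synthesis were called. Apart from Pcyt2, the tested members of the ethanolamine branch were the kinases Etnk1 and Etnk2, which make phosphoethanolamine, and Selenoi and Cept1, which join CDP-ethanolamine to diacylglycerol. Etnk1 was at 210.1 and 217 CPM in the edited against 221 and 228 CPM in the cDNA libraries (log2 change -0.07 ± 0.04, adjusted p = 0.223). Selenoi was at 149 and 156 CPM against 163 and 152 CPM (-0.05 ± 0.04, adjusted p = 0.547), and Etnk2 was below 1 CPM in all 4. Cept1 alone was called, at 55.0 and 58.0 CPM against 49.5 and 49.2 CPM (0.19 ± 0.06, adjusted p = 0.019). The call was lost without the second edited library or either cDNA library (adjusted p = 0.0787 to 0.177), and 24.9% of its exon bases are shared with other tested genes.

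None of the 7 tested genes of the phosphatidylserine route was called, by edgeR or by DESeq2, at a threshold that 18.4% of all genes passed in the edgeR test. At an unadjusted p under 0.05 the edgeR count was 2, both lower. Ptdss1, which swaps the choline headgroup of phosphatidylcholine for serine, was at 60.1 and 59.1 CPM in the edited against 65.3 and 66.5 CPM in the cDNA libraries (-0.15 ± 0.06, adjusted p = 0.0793). Ptdss2, which does the same from phosphatidylethanolamine, differed by -0.11 ± 0.11, and Pisd, the mitochondrial phosphatidylserine decarboxylase, by -0.08 ± 0.08. Edited and cDNA libraries overlapped in Pisd (36.6 and 39.3 against 41.6 and 38.5 CPM). Prelid3b and Triap1, which carry phosphatidylserine between mitochondrial membranes, differed by 0.05 ± 0.05 and 0.09 ± 0.10, their relative Prelid3a by -0.44 ± 0.20 (adjusted p = 0.121), and Pemt, which methylates phosphatidylethanolamine to phosphatidylcholine, by -0.12 ± 0.24.

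In the choline branch the terminal enzyme Chpt1 fell and a minor cytidylyl-transferase rose, while the kinases and the main cytidylyl-transferase were not called. Cept1, described above, also counts as a terminal enzyme of this branch and was called in the other direction from Chpt1 (0.19 ± 0.06). That call did not hold when some single libraries were left out. The kinase Chka was at 261 and 257 CPM in the edited against 264 and 263 CPM in the cDNA libraries (-0.03 ± 0.04), and the cytidylyl-transferase Pcyt1a at 102 and 98.5 against 103 and 105 CPM (-0.05 ± 0.05). Chkb, the other kinase, differed by 0.13 ± 0.08 (adjusted p = 0.339), and 57.6% of its exon bases overlap other tested genes. Chpt1, the choline phosphotransferase of the Golgi, fell to 8.28 and 7.61 CPM from 14.5 and 12.9 CPM (-0.78 ± 0.14, adjusted p = 1.9e-05). Pcyt1b, the other choline cytidylyl-transferase, rose by 2.04 ± 0.50 (adjusted p = 0.0025) but stayed at 2.02 and 0.951 CPM in the edited libraries, and its call was lost without the first edited or the first cDNA library (adjusted p = 0.0649 to 0.18).

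**Figure D2:**
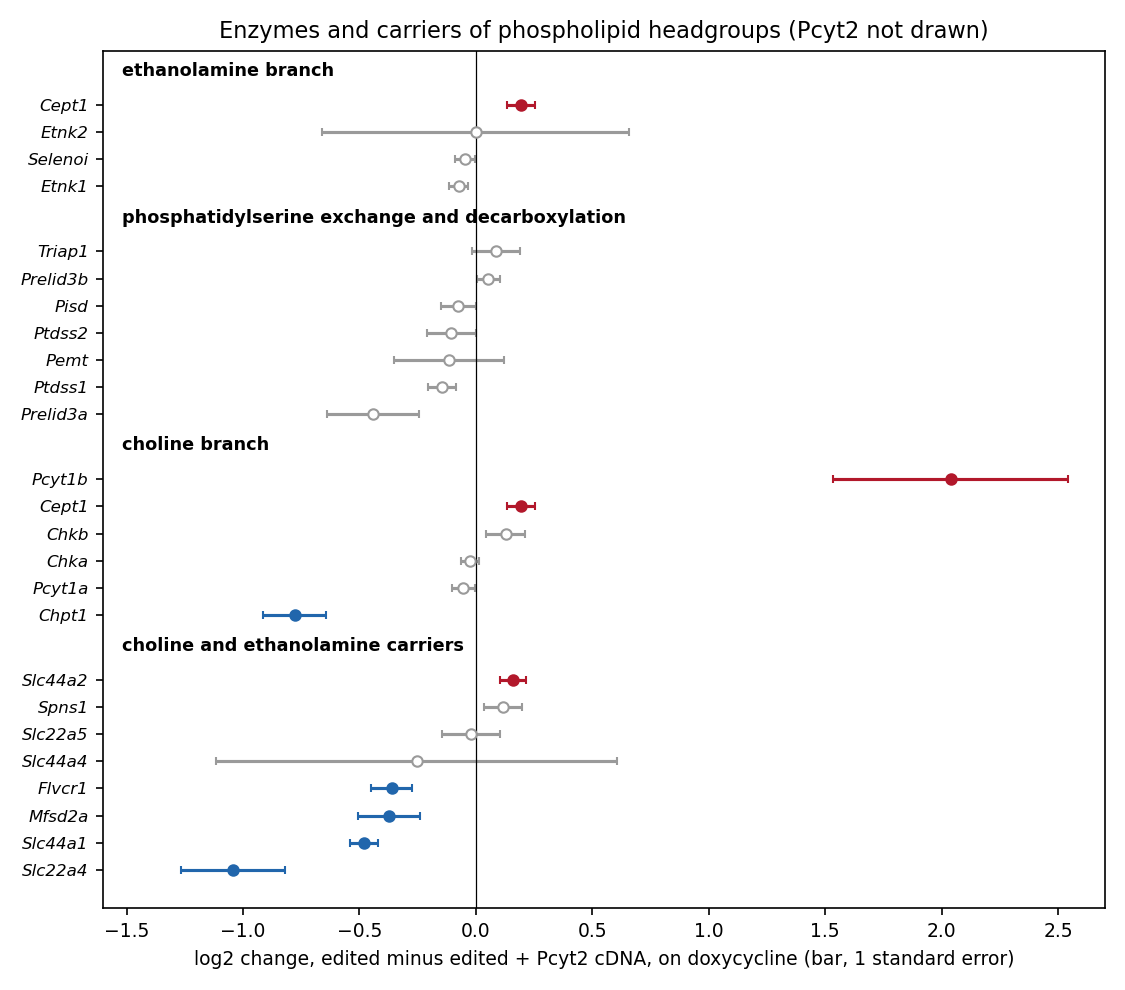
The x axis is the log2 change, edited minus cDNA, with bars of 1 standard error, for the tested genes of the ethanolamine branch, the phosphatidylserine route, the choline branch and the headgroup carriers, Pcyt2 left out. Filled points passed the adjusted threshold. None of the 7 phosphatidylserine genes did, and Chpt1 and 4 carriers passed it below 0.

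Of 8 tested carriers of choline and ethanolamine, 4 were lower and 1 higher (62.5% called, beside 18.4% of all genes), with a median log2 change of -0.31 beside -0.02 for all genes tested. Slc44a1, a choline and ethanolamine transporter of the plasma membrane and mitochondria, fell to 46.8 and 53.1 CPM from 69.7 and 69.4 CPM (-0.48 ± 0.06, adjusted p = 1.5e-08). Flvcr1, a choline importer, fell by 0.36 ± 0.09 on the log2 scale, and Mfsd2a, a carrier of lysophospholipids, by 0.37 ± 0.13. Slc44a2 rose by 0.16 ± 0.06. Leaving out single libraries ended the calls of Slc44a2 and Mfsd2a in all 4 cases (adjusted p = 0.125 to 0.18 and 0.0634 to 0.274) and that of Flvcr1 without the first edited or the first cDNA library (0.0514 to 0.0601). Slc22a4, the fourth gene that fell, was below 5 CPM.

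Of 33 tested genes of headgroup release and phospholipid breakdown, 1 was higher and 5 lower, a share of 18.2% against 18.4% of all genes. Naaa, which hydrolyses N-acylethanolamines and so frees ethanolamine, fell to 10.8 and 9.51 CPM from 17.8 and 18.7 CPM (-0.84 ± 0.11, adjusted p = 7.0e-08). Pnpla7, a lysophospholipase, fell by 0.60 ± 0.13 on the log2 scale, and Pla2g7, a secreted phospholipase, rose by 0.76 ± 0.16. Smpd3, a neutral sphingomyelinase that frees phosphocholine from sphingomyelin, fell to 123 and 125 CPM from 182 and 172 CPM (-0.51 ± 0.04, adjusted p = 7.6e-13). Among 8 lysophospholipid acyltransferases 3 were lower (37.5% called), among them Lpcat3, which loads polyunsaturated acyl chains (-0.35 ± 0.06), and Mboat1 (-0.29 ± 0.04). Of 25 genes of glycerolipid synthesis 3 were higher and 5 lower (32% called), the latter including Agpat2, which makes phosphatidic acid (-0.62 ± 0.06), and Lpin1, which makes diacylglycerol (-0.54 ± 0.11).

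Of 22 tested fatty acid genes 9 were lower, 1 higher and 12 not called (median log2 change -0.13), and of 29 sterol genes 12 were lower, 0 higher and 17 not called (median -0.17), where 10.0% of all genes were called lower. No sterol gene was higher at an unadjusted p under 0.05 or by DESeq2 either. Fasn, the fatty acid synthase, was at 768 and 749 CPM in the edited against 1116 and 1085 CPM in the cDNA libraries (-0.54 ± 0.04, adjusted p = 1.9e-15). Acaca, which makes its malonyl-CoA substrate, fell by 0.42 ± 0.05, and the desaturases Scd2 and Scd1 by 0.42 ± 0.04 and 0.30 ± 0.05. Scd1 and Scd2 are close paralogs whose reads the counting could have split. Among the sterol genes that fell were Mvd (-0.39 ± 0.07), Idi1 (-0.35 ± 0.07) and Tmem97 (-0.33 ± 0.05), the first 2 enzymes of the pathway and the last a sterol-binding membrane protein. Angptl4, a secreted inhibitor of lipoprotein lipase, went the other way, at 267 and 265 CPM in the edited against 119.7 and 121 CPM in the cDNA libraries (1.14 ± 0.05, adjusted p = 5.2e-24), while the fat-cell factor Pparg (-0.56 ± 0.07) and the fatty acid oxidation gate Cpt1a (-0.45 ± 0.05) fell. No gene of these 2 lists reached a call against a 1.5-fold change.

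Many target genes of NRF2, the transcription factor of the antioxidant response, were lower, among them detoxification enzymes and glutathione genes. Of 34 tested, 21 were lower and 1 higher (64.7% called, against 18.4% of all genes), with a median log2 change of -0.25. The 1 that was higher, looked up after the counts were seen, was Gss, the glutathione synthetase. Gsta4, a glutathione transferase that clears lipid aldehydes, was at 27.5 and 29.6 CPM in the edited against 67.3 and 69.5 CPM in the cDNA libraries (-1.26 ± 0.06, adjusted p = 2.8e-22). Ephx1, an epoxide hydrolase, was at 6.32 and 6.18 against 16.3 and 17.2 CPM (-1.43 ± 0.10, adjusted p = 4.0e-15), and Gsta1 at 3.29 and 2.38 against 11.3 and 14.8 CPM (-2.21 ± 0.16, adjusted p = 5.2e-15). In these 3 genes both edited libraries lay below both cDNA libraries, but the share of all tested genes that lay apart was not counted. Gsta1 has near-identical relatives, so its own share of the reads is uncertain.

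Of the genes of glutathione supply, Gss was called higher, as given above, and others were lower. Slc7a11, the cystine importer, was at 53 and 52.5 CPM in the edited against 84.3 and 82.4 CPM in the cDNA libraries (-0.66 ± 0.08, adjusted p = 4.3e-05). Gclc and Gclm, the catalytic and modifier subunits of the enzyme that starts glutathione synthesis, fell by 0.34 ± 0.06 and 0.29 ± 0.05 on the log2 scale, and Gstm1, another glutathione transferase, by 0.65 ± 0.08. The factor's own gene Nfe2l2 was at 154 and 155 against 169 and 173 CPM (-0.15 ± 0.04, adjusted p = 0.00655), a call lost without the second cDNA library (adjusted p = 0.102). Not all members were called: Txnrd1, a thioredoxin reductase, was at 409.8 and 424 against 419 and 407 CPM (0.01 ± 0.04), and Hmox1, the heme oxygenase (-0.20 ± 0.10, adjusted p = 0.15), and Srxn1, a sulfiredoxin (-0.15 ± 0.07, adjusted p = 0.174), were not called. Outside the list, the aldo-keto reductase Akr1c19 fell to 29.5 and 33.2 CPM from 67.1 and 69.6 CPM (-1.13 ± 0.07, adjusted p = 9.8e-17).

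The antioxidant response element is the short site that NRF2 binds. Its core TGACNNNGC, searched on both strands, stood in 7 of the 19 called-lower genes of the list that had a RefSeq window, against 12.4% of all 32851 windows and 14.4% of the windows of tested genes. The Gclm window, chr3:122245307-122245606 on the plus strand of GRCm38.p6, is shown as an example because its gene is a known NRF2 target, with the match, which reads on the minus strand at position -134, in capitals.
Gclm: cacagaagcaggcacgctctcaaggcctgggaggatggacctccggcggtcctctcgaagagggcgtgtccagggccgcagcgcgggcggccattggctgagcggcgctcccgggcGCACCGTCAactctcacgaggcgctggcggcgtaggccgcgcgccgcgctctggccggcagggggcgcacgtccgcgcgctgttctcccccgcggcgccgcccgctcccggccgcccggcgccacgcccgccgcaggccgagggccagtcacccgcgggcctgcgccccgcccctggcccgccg
Over all tested members of the list with a window, called or not, 11 of 29 held the core. These counts take a gene with a match in any of its windows, while the percentages are over single windows. The units are thus unlike, and a gene with several windows has more ways to match.

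Most output genes of RAS-MAPK signalling, the cascade that ends in ERK, rose. Of 27 tested, 20 were higher and 0 lower (74.1% called, beside 18.4% of all genes), with a median log2 change of 0.37 beside -0.02 for all genes. No member was lower at an unadjusted p under 0.05 or by DESeq2, which called 15 higher. Egr1, an immediate early zinc finger factor, was at 64.6 and 61.1 CPM in the edited against 22.5 and 22.8 CPM in the cDNA libraries (1.47 ± 0.08, adjusted p = 2.1e-20). Its relative Egr3 (18.8 and 17.3 against 6.32 and 6.49 CPM, 1.49 ± 0.12) and Fosb, a subunit of AP-1 (11.4 and 10.4 against 3.97 and 3.72 CPM, 1.51 ± 0.17), rose too, and Jun, another subunit, rose by 0.73 ± 0.13. Of the feedback inhibitors, the ERK phosphatase Dusp6 was at 636 and 649 against 379 and 389.9 CPM (0.74 ± 0.04, adjusted p = 2.1e-20), and Spry4, a Sprouty protein, at 68.8 and 71.1 against 41.6 and 41.1 CPM (0.76 ± 0.06). The edited and cDNA libraries did not overlap in these 6 genes, which were named for their size of change or after their values were seen. How many of all tested genes lay apart in this way was not counted, so this describes single genes only. Leaving out single libraries left 15 to 18 of the 20 calls.

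**Figure D3:**
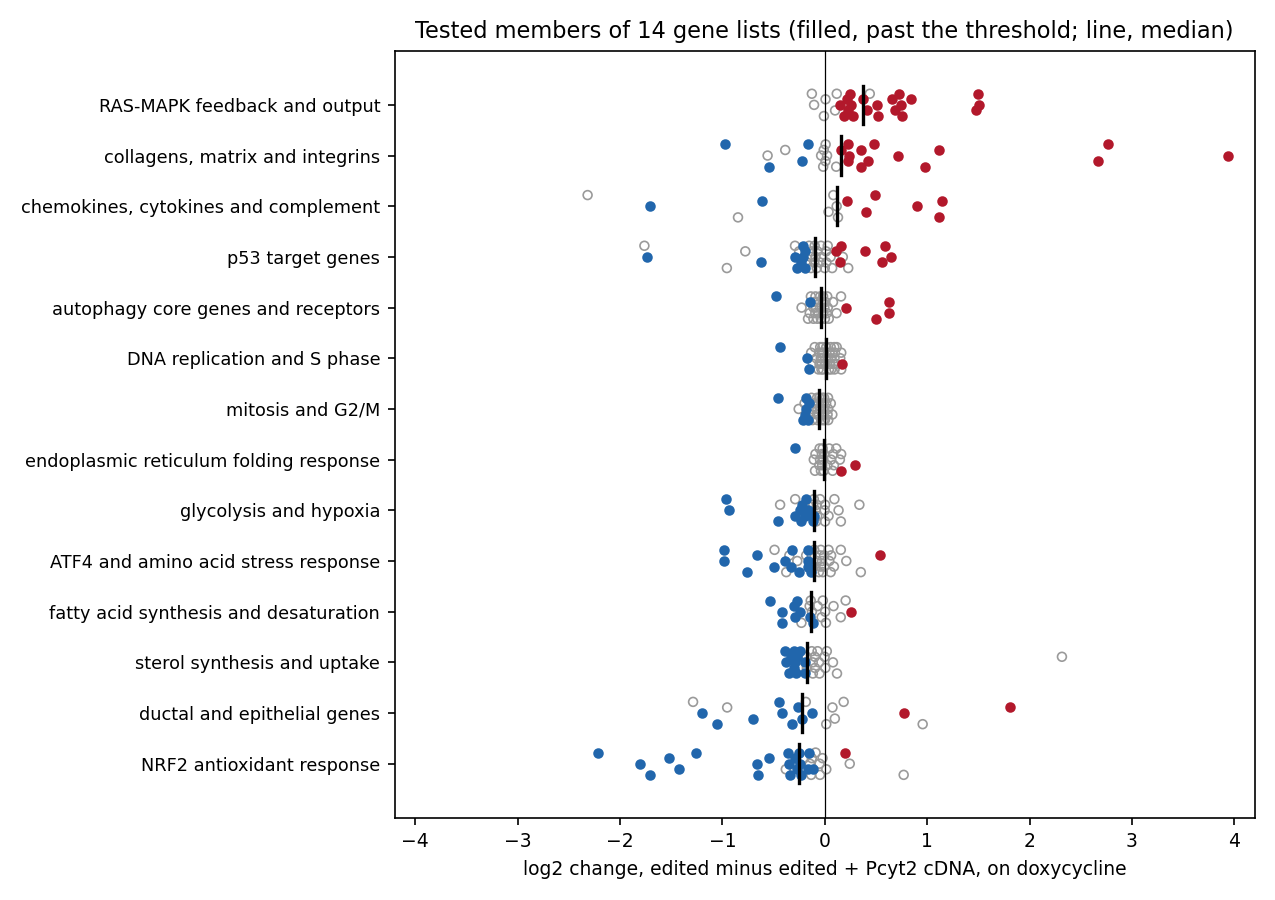
Each point is a tested member of 1 of 14 gene lists, placed by its log2 change, edited minus cDNA, on the x axis. Filled points passed the adjusted threshold, red higher and blue lower, and the black line is the list's median, with members beyond 4.2 left out. The RAS-MAPK median lies at 0.37 and the NRF2 median at -0.25.

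Of 27 tested collagen, matrix and integrin genes 14 were higher and 4 lower (66.7% called, beside 18.4% of all genes, 8.40% higher and 10.0% lower). Fn1, fibronectin, was at 199 and 213 CPM in the edited against 99.9 and 91.3 CPM in the cDNA libraries (1.11 ± 0.05, adjusted p = 1.7e-20). Itgb4, the integrin subunit of hemidesmosomes, fell to 63.5 and 61.6 from 123 and 124 CPM (-0.98 ± 0.05, adjusted p = 2.7e-20). Ccn1, a matricellular protein, was at 138 and 143 against 71.9 and 70.5 CPM, but its call (0.98 ± 0.15, adjusted p = 0.0102) was lost whichever of the 4 libraries was left out (adjusted p = 0.0728 to 0.105). Plat, the tissue plasminogen activator (1.15 ± 0.06), and Ankrd1, a YAP target (0.77 ± 0.04), also rose. Of 10 tested mesenchymal genes 4 were higher and 1 lower (50% called). Those that rose included the repressor of epithelial genes Zeb2 (0.57 ± 0.11) and the receptor kinase Axl (0.31 ± 0.04). The mesenchymal filament gene Vim went the other way in mean level, at 1894 CPM in the edited against 2256 CPM in the cDNA libraries.

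Of 14 tested chemokine, cytokine and complement genes 6 were higher and 2 lower (57.1% called, beside 18.4% of all genes). Il1rn was at 148 and 141 CPM in the edited against 65.3 and 65.1 CPM in the cDNA libraries (1.15 ± 0.05, adjusted p = 5.2e-22), and Lif, a cytokine of the interleukin 6 family, at 60.0 and 60.4 against 32.4 and 32.3 CPM (0.90 ± 0.07, adjusted p = 1.0e-14). Il33, an alarmin, went down to 145 and 153 from 226 and 228 CPM (-0.61 ± 0.04, adjusted p = 5.1e-16). Ptgs2, the inducible cyclooxygenase, rose to 291 and 313 from 159.6 and 162 CPM (0.91 ± 0.04, adjusted p = 4.1e-21). Of 17 tested interferon-stimulated genes 1 was called (5.88%).

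Of 19 tested ductal and epithelial genes 9 were lower, 2 higher and 8 not called (57.9% called beside 18.4% of all genes, median -0.22). Krt19, the ductal keratin, was at 877 and 832 CPM in the edited against 1398 and 1379.7 CPM in the cDNA libraries (-0.70 ± 0.04, adjusted p = 2.2e-18), and Elf3, an epithelial ETS factor, at 6.76 and 7.0 against 16 and 12.9 CPM (-1.05 ± 0.14, adjusted p = 9.4e-08). The groups did not overlap in either, a remark on these 2 genes only. The 2 that rose were Spp1 and Sox9, the ductal progenitor factor (0.77 ± 0.14). Of 19 mucin and foregut genes 3 were higher, 6 lower and 10 not called (47.4% called), the lower ones led by Klf4, a factor of epithelial differentiation, which fell to 34.1 and 31.7 from 84.2 and 80.5 CPM (-1.32 ± 0.06, adjusted p = 3.2e-22), with Lgals4, a gut galectin (-0.68 ± 0.04), and the foregut factor Gata5 (-0.56 ± 0.06).

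Of 39 tested entries of the ATF4 amino acid response, Ddit3 under 2 identifiers, 13 were lower and 1 higher (35.9% called, beside 18.4% of all genes, median -0.11), the one being Phgdh, the first enzyme of serine synthesis, at 889 and 881 CPM in the edited against 611 and 609 CPM in the cDNA libraries (0.54 ± 0.04, adjusted p = 5.2e-15). Stc2, a secreted stress glycoprotein, fell by 0.39 ± 0.08. Of 25 genes of the endoplasmic reticulum folding response 2 were higher and 1 lower, a share of 12% beside 18.4% of all genes. Of 29 glycolysis and hypoxia genes 12 were lower and 0 higher (41.4% called, median -0.11), among them Pgk1 (-0.46 ± 0.04) and Gapdh (-0.24 ± 0.04), enzymes of lower glycolysis, and Ndrg1, a hypoxia-responsive gene that fell to 9.16 and 9.99 from 18 and 18.6 CPM (-0.94 ± 0.11). At an unadjusted p under 0.05 the list held 2 higher genes, DESeq2 called 0 higher, and up to 2 were called higher under other scalings or filters.

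Of 40 replication and S phase genes 10% were called, beside 18.4% of all genes. In this list 1 was higher, the helicase subunit Mcm4 (0.17 ± 0.04), and 3 lower, among them E2f2, an activator of S phase genes (-0.44 ± 0.08). Of 40 mitotic genes 7 were lower and 0 higher (17.5% called, near the 18.4% of all genes, 0 higher also at an unadjusted p under 0.05 and by DESeq2), with Cdc25b, a phosphatase that opens mitosis (-0.46 ± 0.07), and Cdc20, an activator of the anaphase-promoting complex (-0.22 ± 0.05), among them. Of 35 autophagy genes 4 were higher and 2 lower (17.1% called, near the share of all genes), including the receptor Calcoco1 (0.63 ± 0.10) and Wipi1, a phosphoinositide-binding protein of early autophagosomes (0.50 ± 0.09). Of 36 lysosomal genes 5 were higher and 4 lower (25% called), led by the protease Ctsl, at 305 and 307 CPM in the edited against 186 and 189.5 CPM in the cDNA libraries (0.70 ± 0.04, adjusted p = 1.0e-18), 26.8% of whose exon bases overlap another tested gene.

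Of 42 tested p53 target genes 7 were higher and 9 lower (38.1% called, beside 18.4% of all genes), with p53 silenced in both groups. The list's median log2 change was -0.095, beside -0.02 for all genes tested. Cdkn1a, the CDK inhibitor p21, was at 72.7 and 74.6 CPM in the edited against 49.2 and 50.8 CPM in the cDNA libraries (0.56 ± 0.05, adjusted p = 1.8e-11). Pmaip1, the BH3 protein Noxa (0.65 ± 0.13), and Plk3, a stress kinase (0.59 ± 0.10), rose as well. Mdm2, the ubiquitin ligase of p53, rose by 0.16 ± 0.05 (adjusted p = 0.0107), a call lost without the second edited or the first cDNA library (0.102 to 0.178), while Ccng1, cyclin G1, fell to 269 and 294 from 347 and 339.6 CPM (-0.29 ± 0.04, adjusted p = 4.0e-07). Members of the list were called in both directions, more of them lower, although most of those named here rose.

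The same contrast in cells off doxycycline, with p53 restored, was fitted with the same model. There 4944 genes were called (33.1%), 2431 higher (16.3%) and 2513 lower (16.8%), and no library is shared with the on-doxycycline contrast. Of the 1253 genes higher on doxycycline, 279 were also higher off it (22.3% of the on calls and 11.5% of the off calls), 381 were lower and 593 were not called. Of the 1493 lower ones, 422 were also lower, 394 were higher and 677 were not called. The difference between the 2 contrasts, tested in the same fit, was called in 3759 genes (25.2%). These included all 381 and all 394 of opposite sign. Calls of opposite sign nearly ensure a called difference, so that count is no separate result. Trp53 differed between the off-doxycycline groups, at 42.1 and 41.7 CPM in the edited against 97.2 and 86.8 CPM in the cDNA libraries (-1.13 ± 0.07), so that how much p53 was restored cannot be told apart there from the Pcyt2 state.

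**Figure D4:**
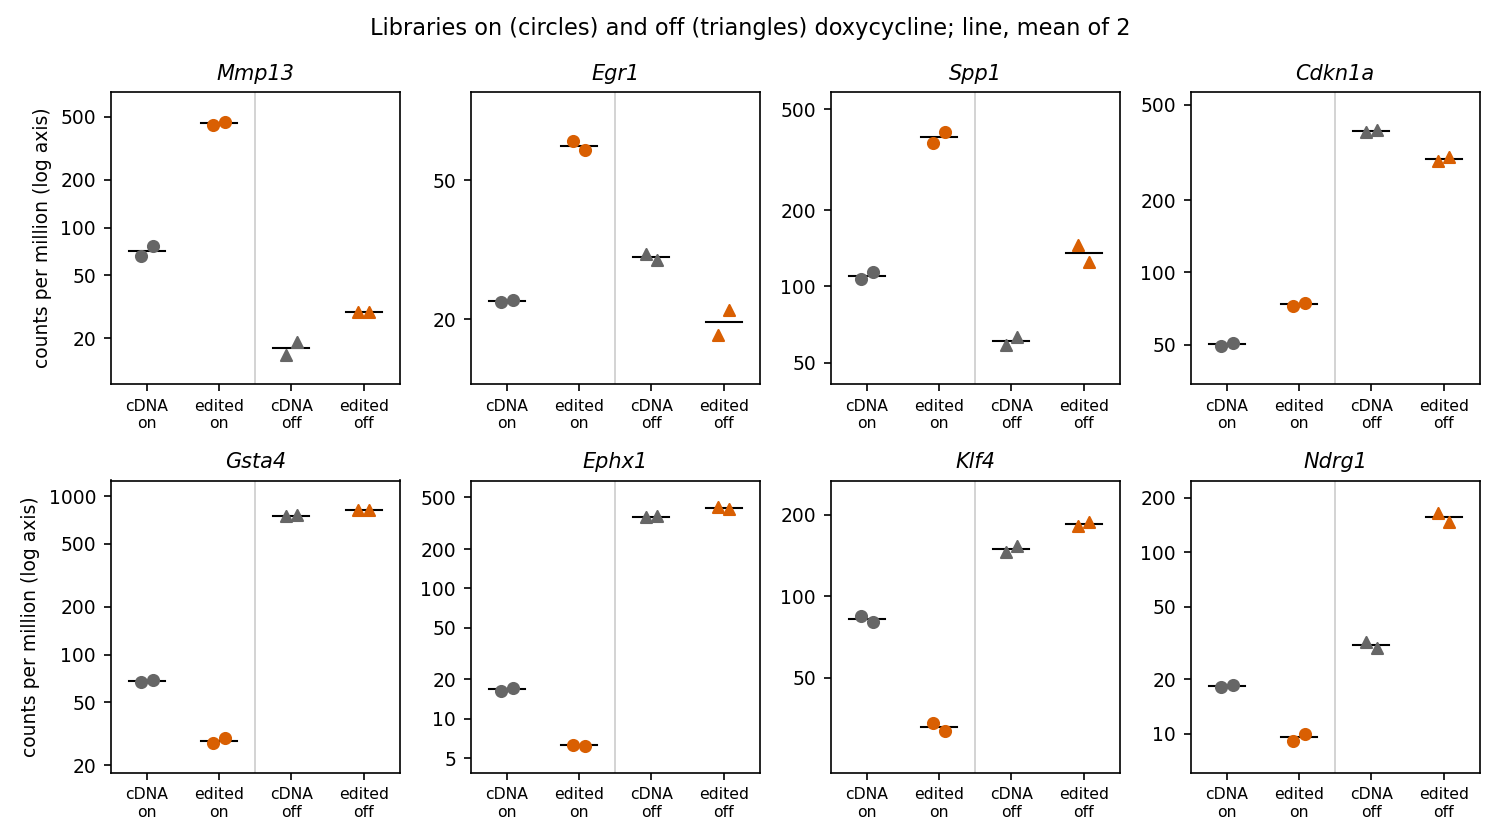
Each panel is a gene, with CPM on a log y axis and the 4 groups on the x axis. Points are single libraries, circles on and triangles off doxycycline, grey with and orange without the cDNA, and the line is the mean of 2. Ndrg1 lies at 9.16 and 9.99 CPM in the edited libraries on doxycycline and at 166 and 147 CPM off it.

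The 8 genes with the smallest p in the difference were Smpd3, Ndrg1, Gstm1, Ankrd1, Akr1c19, Ctsl, Atp1b1 and Plat. Ndrg1 was lower in edited cells on doxycycline and higher off it (166 and 147 against 32.2 and 29.7 CPM, 2.34 ± 0.06), a difference of -3.27 on the log2 scale (adjusted p = 2.1e-24). Smpd3 (1.31 ± 0.04 off), Gstm1 (1.73 ± 0.05) and Akr1c19 (1.13 ± 0.06) did the same, and Atp1b1, a sodium pump subunit, did not differ on doxycycline (0.01 ± 0.06, adjusted p = 0.953) but was higher off it (2.39 ± 0.07). Ankrd1 (-0.86 ± 0.05 off), Plat (-0.74 ± 0.06) and Ctsl (-0.58 ± 0.04) were higher on doxycycline and lower off it. The NRF2 genes, 21 lower and 1 higher on doxycycline, were 7 lower and 14 higher off it, and the RAS-MAPK genes, 20 higher and 0 lower on it, were 6 higher and 13 lower off it. Of all genes, 16.8% were called lower and 16.3% higher off doxycycline. By single difference tests, 12.8% of all genes had a lower and 12.4% a higher log2 change on doxycycline than off it. In the same tests 18 of the 34 NRF2 genes were lower and 3 higher, and 17 of the 27 RAS-MAPK genes were higher and 3 lower. Gsta4 shows the levels behind this, with 818 and 814 CPM in the edited and 747 and 759 CPM in the cDNA libraries off doxycycline.

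**Figure D5:**
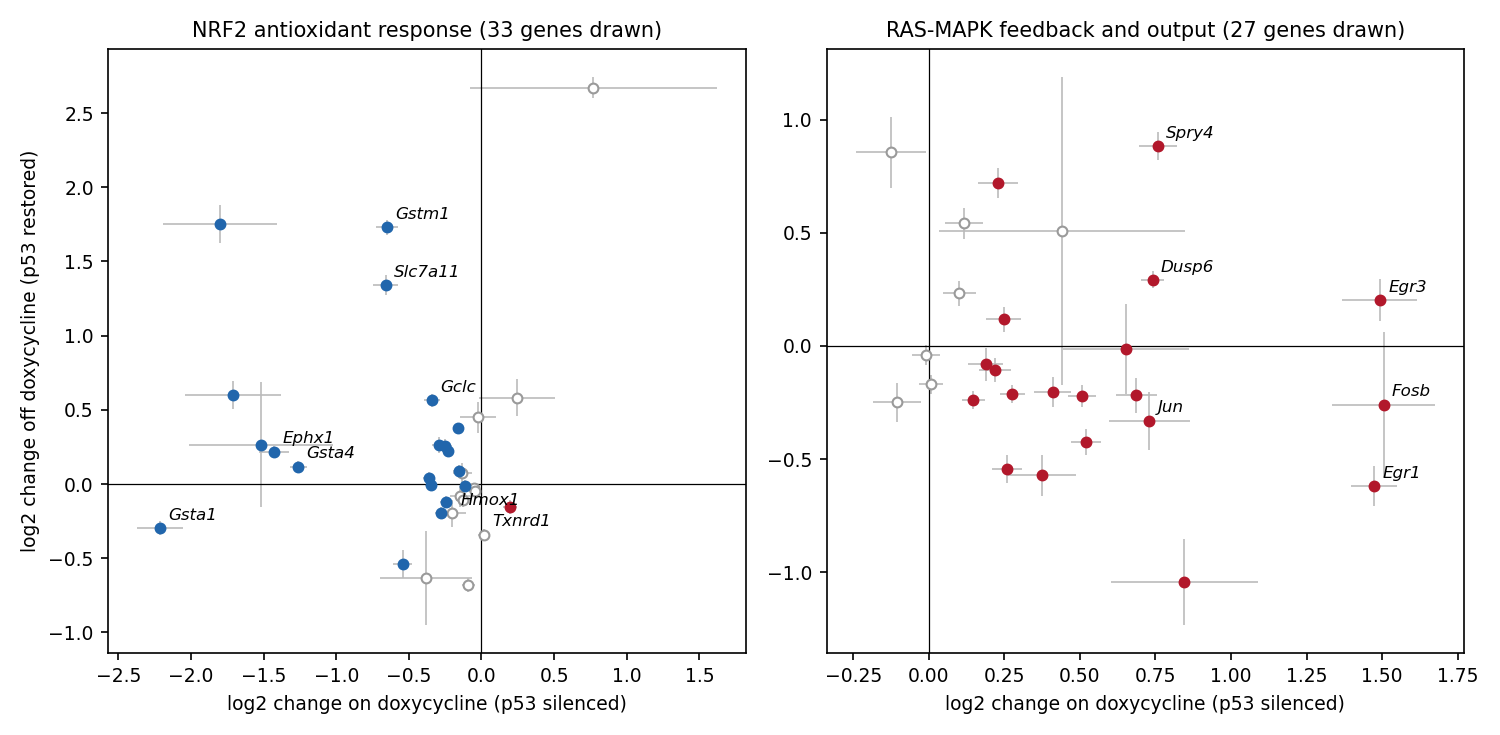
The x axis is the log2 change, edited minus cDNA, on doxycycline and the y axis the same off doxycycline, with bars of 1 standard error. The left panel draws 33 NRF2 genes and the right panel 27 RAS-MAPK genes, filled where called on doxycycline. Gstm1 and Slc7a11 lie left of 0 and above 0, and Egr1 lies right of 0 and below 0.

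In all, 41 genes were called in the same direction on and off doxycycline with at least a 2-fold change in each, 22 higher and 19 lower, Pcyt2 among them, where 2.06% of genes were called with that size on doxycycline and 4.42% off it (2.80% higher, 1.62% lower). Nrk (2.46 ± 0.33), Serpina1b, an alpha-1 antitrypsin gene of a near-identical family (2.80 ± 0.36 on and 2.01 ± 0.27 off), and Anxa6, a calcium-dependent membrane-binding protein (1.69 ± 0.17 on and 1.75 ± 0.14 off), rose in both. Spp1 also rose in both states (1.15 ± 0.07 off). Ly6a fell in both (-1.55 ± 0.09 off).

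Levels in the unedited parental cells on doxycycline, from the separately normalised table and with no test, place some of these genes. Mmp13 was at 9.03 ± 0.581 CPM there (SD, n = 3), below the cDNA as well as the edited libraries. Egr1 was at 25.6 ± 1.03 and Fn1 at 89.9 ± 3.39 CPM, near the cDNA libraries. Other genes lay nearer the edited libraries. Sox9 was at 12.8 ± 1.75 and Ccng1 at 283 ± 7.47 CPM, near the edited libraries, and Itgb4 at 48.2 ± 1.75 CPM, below both groups. These are examples, and which group lay nearer the parental level was not counted over all genes. Gsta4 was at 224 ± 22.3, Ephx1 at 30.0 ± 0.991, Klf4 at 113 ± 6.50 and Krt19 at 1981 ± 11.6 CPM, above both groups. Because the tables were normalised separately, these levels were not compared by a test.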

How the data were processed

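RNA was sequenced from 24 samples. The 8 used here for tests were the edited and cDNA cells on and off doxycycline, and 3 parental libraries gave levels only. The deposited gene tables hold expected counts from HOMER, which split reads in steps of 0.5, counted over exons on both strands with GENCODE annotation M25 and mm10, per the file headers and labels. STAR 2.6.1c and HOMER are named in the submitters' processing notes. The columns named for wild-type Pcyt2 were matched to the Pcyt2 cDNA samples by elimination. In all, 13 sample columns were not used.

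Counts were rounded to whole numbers, filtered with filterByExpr, scaled by TMM and fitted with edgeR 4.0.16 (quasi-likelihood, robust, limma 3.58.1, R 4.3.3) on 4 group means over 8 libraries with 4 residual degrees of freedom. The Benjamini-Hochberg adjustment ran over 14916 genes, and called means an adjusted p under 0.05. CPM use TMM-adjusted library sizes. Alternatives were DESeq2 1.42.0, other scalings and filters, a replicate block, the on-doxycycline libraries alone, a test against a 1.5-fold change and leaving out each library. The test was also run on simulated data.

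The contrast and the 34 gene lists were chosen with earlier results of these data known, so list counts are descriptions. Named genes were p53 targets and phospholipid headgroup enzymes, up to 4 called members of each other list with the largest change and at least 5 CPM, the 12 highest and 12 lowest called genes, the 8 with the smallest p for the on-off difference and the 10 with the largest change shared on and off. Of the last 10, those under 2 CPM in all on-doxycycline libraries are not printed. The 12 highest and 12 lowest were taken among genes with at least 5 CPM in the higher group and no overlap between edited and cDNA libraries. Some genes that the rule names are not reported here. Gclc, Gclm, Nfe2l2, Txnrd1, Hmox1, Srxn1, Dusp6 and Jun were added as well-known members after their values were seen. Promoter windows are from RefSeq, and exon overlaps from GENCODE M21.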

Additional observations from a re-analysis of the deposited data

Results flagged for a closer look

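The effect of Pcyt2 editing on and off doxycycline was compared by an interaction term in the edgeR fit (adjusted p under 0.05), and 3759 genes differed. The values below are the log2 change on doxycycline minus the log2 change off it, edited minus cDNA in each state, for the genes described above.

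Some genes were called in opposite directions on and off doxycycline. The difference lay below 0 in Ndrg1 (-3.27), Sult1d1 (-3.05), Tcf23 (-2.84), Sh2d4a (-2.74), Hoxa13 (-2.71), Vnn1 (-2.55), Gstm1 (-2.38), Akr1c19 (-2.26), Elf3 (-2.14), Pmp22 (-2.05), Slc7a11 (-2.0) and Smpd3 (-1.83). It also lay below 0 in Ephx1 (-1.64), Klf4 (-1.63), Chpt1 (-1.40), Gsta4 (-1.38), Naaa (-1.29), Scd1 (-1.23), Stc2 (-1.20), Lgals4 (-1.09), Pnpla7 (-1.07), Cpt1a (-1.0), Gclc (-0.90) and Pparg (-0.88). It also lay below 0 in Scd2 (-0.70), Slc44a1 (-0.61) and Gclm (-0.56). The difference lay above 0 in Cept1 (0.36), Slc44a2 (0.36), Phgdh (0.64), Mdm2 (0.71), Wipi1 (0.81), Cdkn1a (0.94), Zeb2 (1.02), Jun (1.06), Pmaip1 (1.20), Ctsl (1.28), Ptgs2 (1.3) and Angptl4 (1.37). It also lay above 0 in Ankrd1 (1.63), Plat (1.89) and Egr1 (2.09).

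Others were called in the same direction in both states, with sizes that differed. The difference lay below 0 in Gsta1 (-1.92), Gngt2 (-1.36), Sox9 (-1.12), Dmbt1 (-0.71), Krt19 (-0.50), Agpat2 (-0.38), Itgb4 (-0.31) and Il33 (-0.19). The difference lay above 0 in Pgk1 (0.25), Pcyt2 (0.30), Cdc20 (0.39), Mboat1 (0.40), Dusp6 (0.45), Spp1 (0.66), E2f2 (0.69), Fn1 (0.73), Il1rn (0.81) and Gm42793 (0.82). It also lay above 0 in Pdgfra (1.05) and Mmp13 (1.91).

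The rest were called in 1 state only, with a difference between the states that was itself called. The difference lay below 0 in Atp1b1 (-2.38), Serpinb1a (-1.69), Gata5 (-0.60), Mvd (-0.52), Idi1 (-0.51), Lpcat3 (-0.41), Nfe2l2 (-0.24) and Etnk1 (-0.22). The difference lay above 0 in Axl (0.23), Mcm4 (0.24), Txnrd1 (0.36), Prelid3b (0.39), Calcoco1 (0.50), Plk3 (0.65), Lif (0.97), Trp53 (1.21), Egr3 (1.29), Tmem252 (1.53) and Ccn1 (1.6). It also lay above 0 in Fosb (1.76), Tmem132c (1.77), Il18rap (2.03), Pgf (2.87), Pcyt1b (2.90) and Mmp10 (3.70). Ptdss1 was called in neither state, and its difference (-0.24) was.

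Trp53 itself differed between edited and cDNA cells off doxycycline, so the amount of p53 transcript and the Pcyt2 state cannot be told apart in these differences.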

How the results depend on the processing

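With DESeq2, 1572 genes were called on doxycycline, 202 of them changed at least 2-fold, 3116 off doxycycline and 2426 in the difference. The glycolysis list, with 0 genes called higher, had 2 with RLE size factors, 1 with upper-quartile scaling, 2 with no filter, 1 with a 1 CPM filter and 2 with the on-doxycycline libraries alone. Tested against a 1.5-fold change, 193 genes were called, 145 of them changed at least 2-fold. That test asks for a larger change by construction, and it left 0 NRF2 genes higher and 5 lower, 4 RAS-MAPK genes higher, 0 sterol genes lower, 0 fatty acid genes higher and 0 lower, 0 ATF4 genes higher and 0 lower, 1 glycolysis gene lower, 3 matrix genes higher and 1 lower, and 1 ductal gene higher and 1 lower. Leaving out 1 library gave 1680 to 2141 calls on doxycycline, 254 to 324 with at least a 2-fold change, 3391 to 4599 off doxycycline, 2978 to 3859 in the difference, and 0 to 1 NRF2 genes higher. The lowest count, 1680, came without the second cDNA library. The cause of the other shifts was not tested. No named gene that was called turned direction under any alternative run. The balance of all calls did turn, from 1253 higher and 1493 lower to 1444 and 1141 with no filter and to 1503 and 1329 with the on-doxycycline libraries alone.

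Of 116 genes followed, 98 were called. Under all 17 alternatives 44 kept direction and call, and 90 did so under all but the 1.5-fold test. The replicate numbers do not pair the libraries (correlations of deviations -0.0696 to 0.0109). With the replicate block 2547 genes were called on doxycycline. With 2 libraries a group, small changes in genes of low count are not detectable at this depth.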
